A study of Mus musculus with 6 samples.

Results

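The genes described here encode 10 proteins that bind the branch point and the end of introns during splicing. They include the SF3A proteins (Sf3a1, Sf3a2, Sf3a3) and some of the SF3B proteins (Sf3b1, Sf3b2, Sf3b3, Sf3b4). The others are both U2AF subunits (U2af1, U2af2) and the U2 A' protein (Snrpa1). The genes were chosen by gene symbol, and all 10 were found among the 15705 genes of the deposited table. The table holds a score called Sd, read here as splicing deficiency, in 6 libraries of cultured mouse cortical neurons. Neurons were taken from C57BL/6 embryos at embryonic day 18, kept for 7 days in culture and then exposed to lentivirus for 3 days. A short CaMKII promoter drove EGFP in the FCK1.3GW vector behind the 3 control libraries and drove N40K in the vector behind the other 3. Both constructs also held the WPRE element and long terminal repeats. N40K is an N-terminal fragment of U1-70K, a protein of the U1 snRNP. The CaMKII promoter is used to drive expression in excitatory neurons, whereas the score was measured in RNA of the whole culture.

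The U2 snRNP is the particle that recognises the branch point of an intron. U2AF first binds the end of the intron, its large subunit on the pyrimidine-rich stretch and its small subunit on the terminal dinucleotide, and helps to recruit the U2 snRNP. SF3B then clamps around the paired branch site and SF3A joins it to the rest of the particle. The U1 snRNP, which the N40K fragment relates to, acts at the other end of the intron. The question here is whether the splicing score of the U2 genes' own transcripts changed in neurons that received N40K. The score was taken as a ratio of unspliced to spliced RNA, as such scores are in this field, and its formula is not given in the sources used here. Reads behind each score are not given either, so the depth is unknown. In bulk RNA, fewer cells of a type and less RNA per cell cannot be told apart, and the score does not measure how much RNA of a gene was present.

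Scores of the U2 genes moved little with N40K. Of the 10 genes, 1 rose, which was Sf3b3, 0 fell and 9 did not pass the test (limma, Benjamini-Hochberg adjusted p under 0.05 over all genes). At an unadjusted p under 0.05 the counts were also 1 and 0, beside 4897 higher and 1150 lower of all 15705 genes. Over all genes 21.5% rose and 4.11% fell. The median log2 change, computed on score + 0.01, was 0.02 for the 10 genes and 0.06 for all genes. Groups were apart, with every N40K score higher, for 2 of the 10, Sf3b3 and Sf3a1, against 33.6% of all genes, and with every N40K score lower for 1, U2af1, against 8.67%. Whether replicates came from separate cultures is not stated in the labels, and p-values therefore measure the spread between these 6 samples alone, which may be technical.

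**Figure D1:**
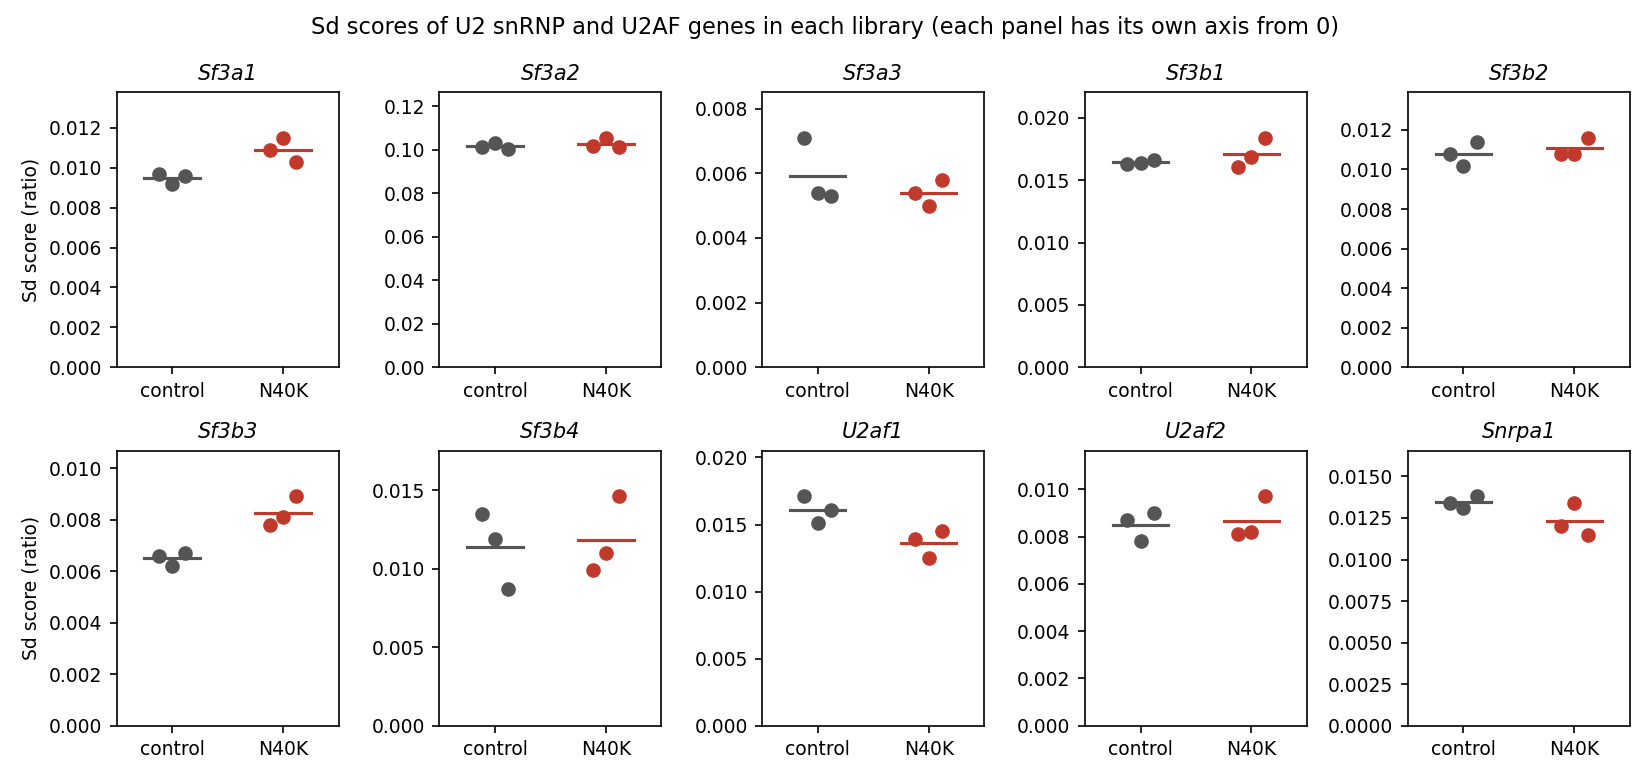
Sd score (ratio, vertical axis from 0, a separate scale in each panel) of each gene in the 3 control libraries (grey) and 3 N40K libraries (red), with points for libraries 1 to 3 from left to right and a line at the group mean. The N40K points of Sf3b3 and Sf3a1 all lie above the control points and those of U2af1 all lie below; in the other 7 panels the groups overlap.

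SF3B3 is the large scaffold subunit of SF3B, built of repeated propeller domains. The Sf3b3 score was 0.0066, 0.0062 and 0.0067 in the control libraries and 0.0078, 0.0081 and 0.0089 in the N40K libraries. Every N40K library was above every control library. The mean rose from 0.0065 ± 0.000265 to 0.00827 ± 0.000569 (SD, n = 3), a ratio of 1.27 and a log2 change of 0.15 ± 0.04 (SE; limma adjusted p = 0.0337). The call held without N40K library 1 (adjusted p = 0.0346) but ended when any other library was left out, with adjusted p-values from 0.0697 without N40K library 3 to 0.106 without control library 2. It also ended when libraries were scaled to each other, as described below.

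Sf3b3 shares its locus on chromosome 8 with Cog4, which encodes a subunit of a Golgi tethering complex. In the GENCODE M21 annotation these genes overlap on opposite strands, and it is not stated whether the score used strand. The Cog4 score was 0.0065, 0.0059 and 0.0055 in control libraries and 0.0084, 0.0084 and 0.0096 in N40K libraries, a ratio of 1.47 (limma adjusted p = 0.0142); this call ended without control library 2 (0.0544) or 3 (0.0561) and with libraries centred on their medians (0.0801). Both genes of the pair thus had higher scores in all N40K libraries, and the part of shared reads in this was not tested. The annotation also lists 2 snoRNA genes, Snord111 and Gm22193, that overlap Sf3b3 on its own strand.

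Of the SF3B genes in this set, Sf3b1, Sf3b2 and Sf3b4 gave no call. Phf5a, an SF3B gene outside the set that was called, is described below. SF3B1 is the subunit that holds the branch site and is often mutated in blood cancers. The Sf3b1 score was 0.0163, 0.0164 and 0.0166 in control libraries and 0.0161, 0.0169 and 0.0184 in N40K libraries. The control libraries were nearly equal and the N40K libraries spread to both sides of them (ratio of means 1.04, limma adjusted p = 0.682). SF3B2 contacts RNA next to the branch site. The Sf3b2 score was 0.0108, 0.0102 and 0.0114 in control libraries and 0.0108, 0.0108 and 0.0116 in N40K libraries, with overlapping groups and a ratio of 1.02 (limma adjusted p = 0.81).

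SF3B4 is a small subunit with RNA recognition motifs and a partner of SF3B2. The Sf3b4 score was 0.0135, 0.0119 and 0.0087 in control libraries and 0.0099, 0.011 and 0.0146 in N40K libraries. Its groups covered nearly the same range, and its ratio of 1.04 was small beside the spread (limma adjusted p = 0.879). It was the most variable of the 10 genes, with a coefficient of variation within groups of 21.1%. The other genes lay between 1.84% for Sf3a2 and 13.1% for Sf3a3. The median was 5.8% for the 10 genes and 12.4% for all genes, so the replicates of most of these genes were close to each other.

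Of the SF3A genes, Sf3a1 came nearest to a change. SF3A1 is the subunit that binds the U1 snRNP and bridges both ends of the intron. The Sf3a1 score was 0.0097, 0.0092 and 0.0096 in control libraries and 0.0109, 0.0115 and 0.0103 in N40K libraries. The groups did not overlap, but the ratio of 1.15 did not pass the test (log2 change 0.10 ± 0.04 SE, limma adjusted p = 0.136). SF3A3 is a subunit of SF3A that contacts the U2 RNA. The Sf3a3 score was 0.0071, 0.0054 and 0.0053 in control libraries and 0.0054, 0.005 and 0.0058 in N40K libraries. Control library 1 stood above the other 5, and with a ratio of 0.91 the gene was not called (limma adjusted p = 0.556). Without control library 1 its log2 change was 0.0044.

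Sf3a2 had by far the highest score of the 10 genes and was the steadiest between libraries. SF3A2 is a subunit of SF3A with a zinc finger. The Sf3a2 score was 0.1014, 0.1033 and 0.1006 in control libraries and 0.1016, 0.1055 and 0.1015 in N40K libraries, a ratio of 1.01 (limma adjusted p = 0.905). Its control mean of 0.102 was 6.19 times that of the next gene, Sf3b1, and stood at percentile 84.2 of all genes, while the other 9 lay between percentiles 31.1 and 54.7. Sf3a2 is annotated on chromosome 10 with 8 introns, and it overlaps Plekhj1 on the opposite strand. Plekhj1 had scores of 0.2671, 0.2668 and 0.2782 in control libraries and 0.2452, 0.2612 and 0.2437 in N40K libraries (ratio 0.924, limma adjusted p = 0.346). Whether shared reads raised the score of Sf3a2 was not tested.

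The U2AF subunits differed in their values. U2AF1 is the small subunit, which reads the last bases of the intron. The U2af1 score was 0.0171, 0.0151 and 0.0161 in control libraries and 0.0139, 0.0125 and 0.0145 in N40K libraries. All N40K libraries were below all control libraries, with means of 0.0161 ± 0.001 and 0.0136 ± 0.00103 (SD, n = 3). The ratio of 0.847 did not pass the test with scores as deposited (log2 change -0.14 ± 0.06 SE, limma adjusted p = 0.136). U2AF2 is the large subunit. The U2af2 score was 0.0087, 0.0078 and 0.009 in control libraries and 0.0081, 0.0082 and 0.0097 in N40K libraries, with overlapping groups and a ratio of 1.02 (limma adjusted p = 0.891). The difference between the changes of the U2AF genes was not tested.

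Snrpa1 encodes U2 A', a protein of the U2 snRNP itself that binds a stem-loop of the U2 RNA together with U2 B''. The Snrpa1 score was 0.0134, 0.0131 and 0.0138 in control libraries and 0.012, 0.0134 and 0.0115 in N40K libraries. N40K libraries 1 and 3 were below the controls and N40K library 2 was level with control library 1. The ratio was 0.916 (limma adjusted p = 0.366). In the annotation the gene overlaps Gm45213, a coding gene model on the same strand.

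Control means of 4 of the 10 genes (Sf3a1, Sf3a3, Sf3b3 and U2af2) were under the added constant of 0.01, which shrinks log2 changes of low scores, so folds were also estimated without it. The fitted fold of Sf3b3 was 1.27 with a 95% interval of 1.10 to 1.47 (limma adjusted p = 0.0347), and the median fold of all genes in this fit was 1.09. In this fit 20.5% of all genes rose and 4.19% fell, and of the 10 genes Sf3b3 alone rose and 0 fell. The intervals of Sf3a2 (0.89 to 1.15), Sf3b2 (0.892 to 1.18) and Sf3b1 (0.905 to 1.2) lay on both sides of 1 and were narrow. That of U2af2 ran from 0.846 to 1.23. Those of Sf3a3 (0.721 to 1.17) and Sf3b4 (0.719 to 1.52) were wide. The interval of Sf3a1 was 1.003 to 1.31, that of U2af1 0.719 to 0.995 and that of Snrpa1 0.787 to 1.06. These intervals are not adjusted for the number of genes. Those of Sf3a1 and U2af1 narrowly left out 1, but neither gene was called in this fit (limma adjusted p = 0.129 and 0.126).

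**Figure D2:**
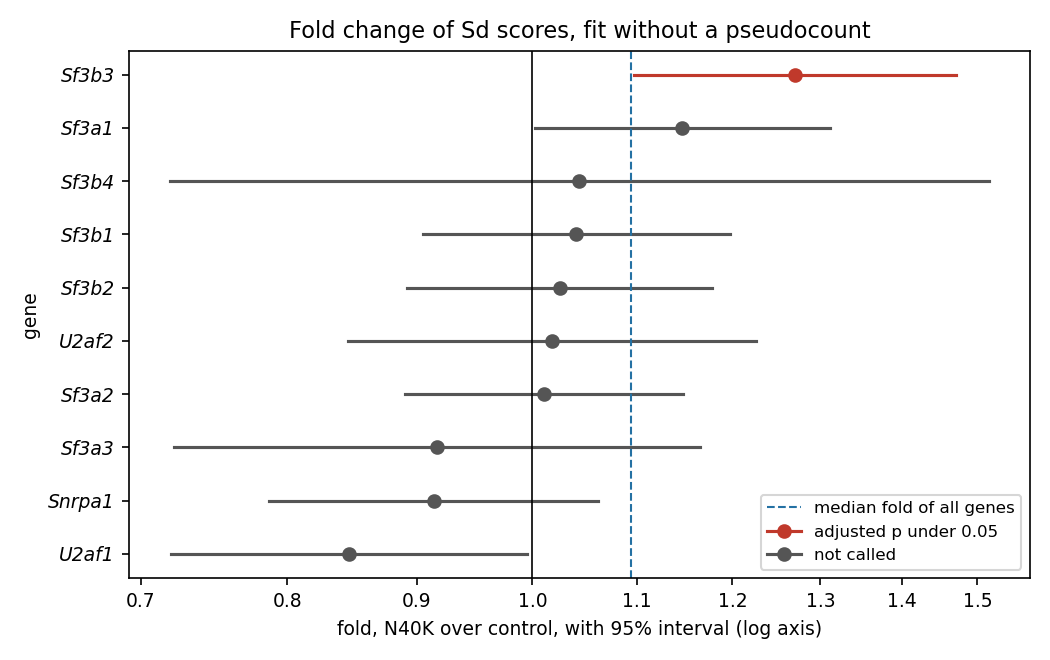
Fold of the Sd score, N40K over control (log axis), fitted without a pseudocount, with its 95% interval for each of the 10 genes; red marks an adjusted p under 0.05, and the dashed line is the median fold of all genes (1.09). The interval of Sf3b3 starts at 1.10, those of Sf3b4 and Sf3a3 are the widest, and U2af1 has the lowest fold.

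The median score over all genes was higher in the N40K libraries, whereas the median over the U2 genes averaged the same in both groups. Whether the U2 genes differ from other genes in this was not tested. Library medians over all genes averaged 0.0132 ± 0.000458 for controls and 0.0154 ± 0.000854 for N40K (SD, n = 3; exact permutation p = 0.1, 2-sided, the smallest that 20 assignments allow). The median over the 10 genes was 0.0121, 0.0111 and 0.0105 in the control libraries and 0.0109, 0.0113 and 0.0116 in the N40K libraries, and the group means were both 0.0112. As a share of its library's median, it was 0.789 to 0.89 in control libraries and 0.709 to 0.743 in N40K libraries, without overlap. The library medians used as the divisor were themselves apart, at 0.0127 to 0.0136 in control and 0.0146 to 0.0163 in N40K libraries. The medians of the 10 genes overlapped between groups, and this share was not computed for other lists. Among all genes, the change of Sf3b3 stood at percentile 67.6, that of Sf3a1 at 59 and that of U2af1 at 13.2. The other 7 lay between percentile 19.4 for Snrpa1 and 44.1 for Sf3b1, below the middle of the table.

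**Figure D3:**
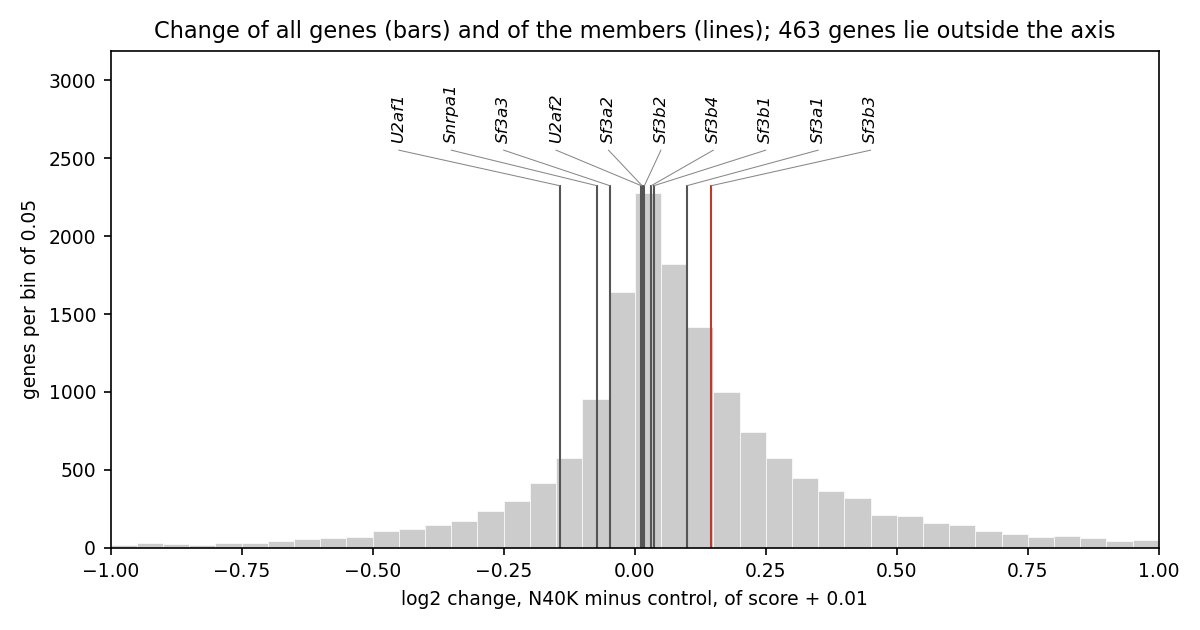
Number of genes (vertical axis) by log2 change of score + 0.01, N40K minus control, in bins of 0.05, with a line at the change of each of the 10 genes (red for Sf3b3, which passed the test); 463 genes lie outside the axis. Of the lines, 2 lie above the median change of all genes (0.06) and 8 below it.

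Since no scaling between libraries is recorded, the direction of the small changes depended on it. When each library was centred on its median, 3 of the 10 genes fell and 0 rose, where 18.4% of all genes fell and 9.75% rose. A fall in a rescaled fit is relative to the other genes of the library and need not be a lower deposited score. With scores as deposited, Sf3a3 and Snrpa1 were not called (limma adjusted p = 0.556 and 0.366). The falls were in U2af1 (log2 change -0.27, limma adjusted p = 0.0166), Sf3a3 (-0.18, 0.0345) and Snrpa1 (-0.20, 0.0493). When libraries were centred on the median deviation of their genes, U2af1 fell (-0.21, 0.0382) and no other of the 10 was called. In that fit 9.67% of all genes fell and 14.2% rose. After quantile normalization U2af1 also fell (-0.28, 0.0165) and no other of the 10 was called, where 12% of all genes fell and 12.9% rose. Snrpa1 (-0.20, 0.0507) and Sf3a3 (-0.15, 0.0544) lay just above the threshold there. Sf3b3 stayed above 0 in these 3 fits but was not called (log2 changes 0.02, 0.08 and 0.04, adjusted p = 0.719, 0.0935 and 0.363). U2af1 was thus lower with N40K in each of the 18 alternative fits, and a call in those that rescale the libraries.

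**Figure D4:**
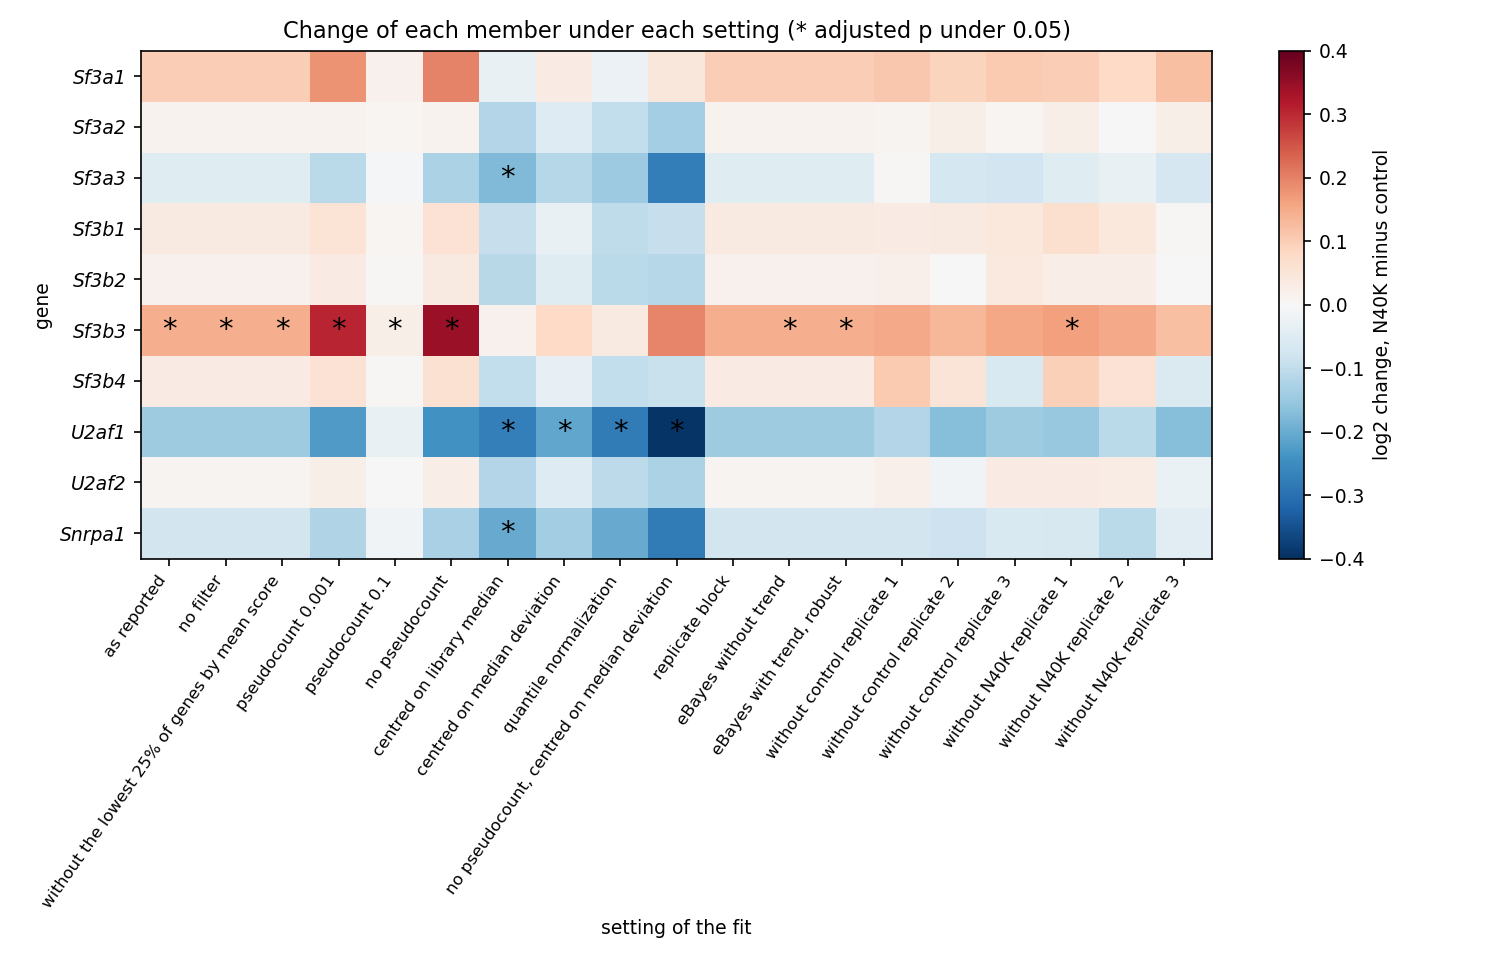
Log2 change of the Sd score, N40K minus control (colour), of each gene (rows) in the fit as reported and in 18 alternatives (columns), with an asterisk where the adjusted p was under 0.05. Sf3b3 is positive and U2af1 and Snrpa1 are negative in every column. The asterisks of Sf3b3 are absent in the rescaled fits, with the replicate block and in most fits with a library left out. Those of U2af1 appear in the rescaled fits, and those of Sf3a3 and Snrpa1 only in the fit centred on the library median.

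The order of the 10 genes by mean score was the same in control and N40K neurons. It ran from Sf3a2 through Sf3b1, U2af1, Snrpa1, Sf3b4, Sf3b2, Sf3a1, U2af2 and Sf3b3 to Sf3a3, from 0.102 down to 0.00593 in control neurons and from 0.103 to 0.0054 in N40K neurons. Of the neighbours in this order, Sf3b1 and U2af1, Snrpa1 and Sf3b4, Sf3b4 and Sf3b2, and Sf3b3 and Sf3a3 had overlapping ranges in the control libraries, and the other 5 pairs did not. In the annotation, 9 of the 10 genes had a transcript labelled as retaining an intron, all but Sf3a3, against 54.4% of the 14911 genes matched by identifier. Sf3b2 had the most, with 6. Transcripts labelled as targets of nonsense-mediated decay were listed for 4 genes, Sf3b1, U2af1, U2af2 and Snrpa1, against 26.6% of matched genes. The median number of introns was 13 for the 10 genes and 8 for all matched genes.

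Beyond the 10 genes, 24 other genes of U2 snRNP proteins and their partners were examined, of which 22 had a score; Sf3b5 and Zrsr1 had none under these names. Of the 22, 2 rose, 0 fell and 20 did not pass (limma). The share that rose was 9.09%, against 21.5% of all genes, and 4.11% of all genes fell. At an unadjusted p under 0.05, 3 were higher and 3 lower, beside 4897 and 1150 of all 15705 genes. Phf5a, the SF3B subunit that sits beside SF3B1 at the branch site, had scores of 0.0098, 0.0095 and 0.0115 in control libraries and 0.0237, 0.0217 and 0.026 in N40K libraries. It rose 2.32-fold, from 0.0103 ± 0.00108 to 0.0238 ± 0.00215 (SD, n = 3; log2 change 0.74 ± 0.07 SE, limma adjusted p = 0.00333). Dhx15, a helicase that takes spliceosomes apart, had scores of 0.0063, 0.0061 and 0.0059 in control libraries and 0.0104, 0.011 and 0.0137 in N40K libraries. It rose 1.92-fold (log2 change 0.43 ± 0.06 SE, limma adjusted p = 0.00798). Both changes were larger than any of the 10 genes, and both calls held in all 18 alternative fits, with adjusted p-values of at most 0.0264 for Phf5a and 0.0398 for Dhx15.

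The median ratio of mean scores of these 22 genes was 1.01, close to the 1.02 of the 10 genes and below the 1.11 of all genes. All 3 N40K scores were above all control scores for 5 of them (Phf5a, Dhx15, U2surp, Rbm5 and U2af1l4), where this held for 33.6% of all genes. They were below all control scores for 4, where this held for 8.67% of all genes: Smndc1, a Tudor domain splicing factor (ratio 0.708, limma adjusted p = 0.0753), Rbm39, a splicing factor related to U2AF2 (0.758, 0.0763), Uhmk1, a kinase named for its U2AF homology motif (0.868, 0.101), and Ddx39b, a helicase that U2AF recruits (0.881, 0.158). None of these 4 passed with scores as deposited. After centring on the library median Phf5a and Dhx15 still rose. Sf3b6, Puf60, Smndc1, Ddx46, Ddx39b, Rbm39 and Uhmk1 fell in that fit, where 18.4% of all genes fell. After centring on the median deviation the falls were Sf3b6, Smndc1, Rbm39 and Uhmk1, where 9.67% of all genes fell. After quantile normalization they were Sf3b6, Puf60, Smndc1, Ddx39b, Rbm39 and Uhmk1, where 12% of all genes fell.

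Other snRNP genes gave the setting for these values. Of 11 genes of U1 snRNP proteins and U1-associated factors, 3 rose (Luc7l3, Prpf39 and Tia1) and 0 fell (limma), with a median ratio of 1.23. The 3 made up 27.3% of the list, near the 21.5% of all genes that rose. At an unadjusted p under 0.05, 6 were higher and 2 lower, beside 4897 and 1150 of all 15705 genes. The number of U1 genes called depended on the libraries and the scaling. Of the 11, 0 rose without control library 2 or 3 or N40K library 2 or 3. Without control library 1 the number was 1, and without N40K library 1 it was 5. Over all 15705 genes, 1613 to 3729 rose with a library left out. With libraries centred on their medians 1 of the 11 rose and 2 fell, where 9.75% of all genes rose and 18.4% fell. Of 17 genes of the U4/U6.U5 tri-snRNP, 1 rose (Snrnp40, ratio 1.65, limma adjusted p = 0.0152) and 0 fell, with 1 and 0 at an unadjusted p under 0.05 and a median ratio of 1.05; the Snrnp40 call ended without control library 2 or 3 (adjusted p = 0.0578 each). After centring on the library median 2 of the 17 fell, where 18.4% of all genes fell. The differences between these lists were not tested. Snrnp70, the gene of U1-70K, had scores of 0.0215, 0.021 and 0.0223 in control libraries and 0.0242, 0.0224 and 0.0234 in N40K libraries (ratio 1.08, adjusted p = 0.376), and it is not stated whether reads of the N40K construct were counted for it.

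**Figure D5:**
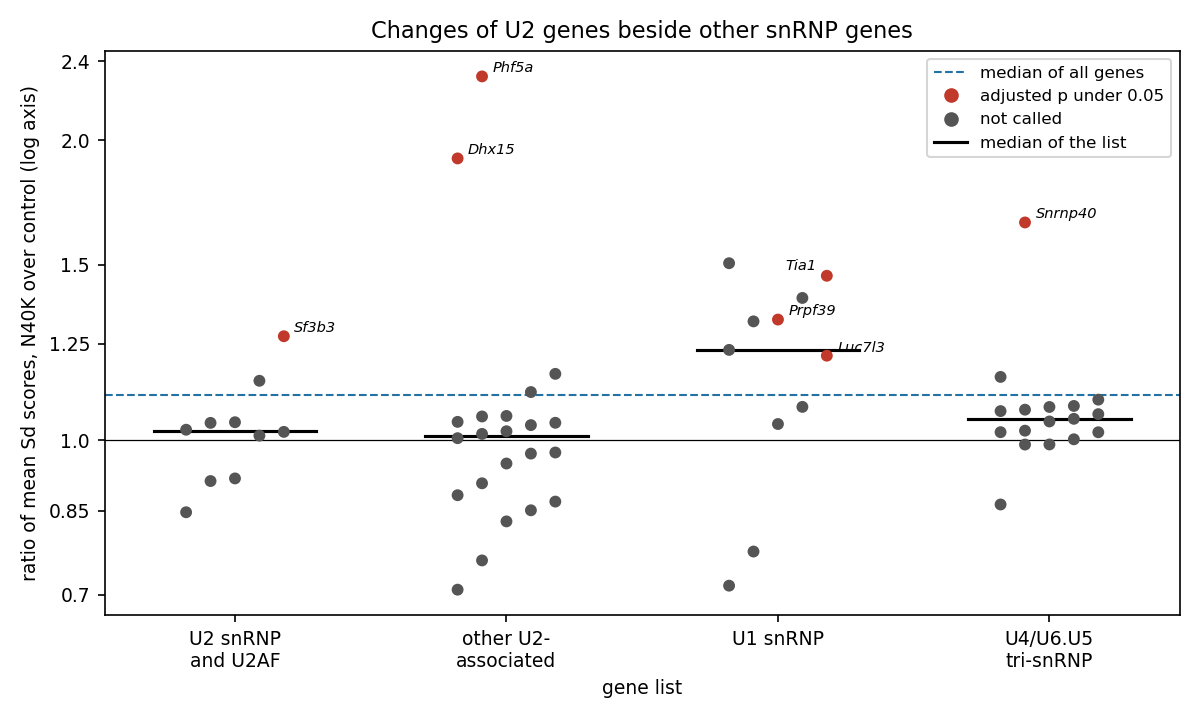
Ratio of mean Sd scores, N40K over control (log axis), of each gene of 4 lists, with red for an adjusted p under 0.05, a black line at each list's median and a dashed line at the median of all genes (1.11). The medians of the U2 snRNP and U2AF genes (1.02) and of the other U2-associated genes (1.01) lie below the dashed line, and Phf5a and Dhx15 are the highest points.

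The score could not be used to check the makeup of the cultures, since it is not a level of expression. All 8 neuronal markers had a score and 0 of them were called in either direction (limma; 1 higher and 0 lower at an unadjusted p under 0.05), and of the 4 astrocyte markers 0 were called with or without adjustment. Of the other glial markers, Mog fell (ratio 0.729, adjusted p = 0.0195) and Csf1r rose (2.76, 0.0131), calls that ended without some libraries (highest adjusted p = 0.0683 for Mog without control library 2 and 0.0536 for Csf1r without control library 3), while Mbp and Cx3cr1 had no score under these names. The part of other cell types in the scores of the U2 genes was not tested.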

How the data were processed

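The 6 stranded poly(A) RNA libraries of cultured neurons were read from both ends over 100 nt, per the labels' protocols. Per the submitters' processing notes, CASAVA, STAR, BWA, bedtools 2.16.1 and the build mm9 were used, in roles that are not stated. The authors deposited a table of Sd scores, which have 4 decimals and a minimum of 0.0001 and were treated as a linear ratio. Its formula, its filters and whether strand was used are not stated, and depth is unknown.

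Using limma 3.58.1 (R 4.3.3), a linear model of log2(score + 0.01) was fitted to all 15705 genes (eBayes with trend, 2-sided), Benjamini-Hochberg adjusted over all genes, with a threshold of 0.05; the filter (above 0 in at least 3 libraries) removed 0 genes. No 2 libraries were identical, and 0 columns were unused. The steps were tested on simulated data that had no shift between libraries, so this does not bear on the choice of scaling. Gene structures came from GENCODE M21, on another build than mm9, matched by identifier for 94.9% of genes, so no coordinates are printed. The members and gene lists were chosen with earlier results of these data known. Genes named were all 10 members, called genes of the other U2 list, Snrnp70, and genes behind some counts of 5 or fewer. Genes behind other such counts, as of the U1 and tri-snRNP genes that fell after centring, were not named. Cog4, Plekhj1 and U2af1l4 were added after their values were seen. Snrpa and Snrpc, also in that rule, entered only as genes of the U1 list, of which 1 other gene is not reported here. Alternatives were other pseudocounts, filters, scalings and eBayes settings, a replicate block and leaving out each library.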

Additional observations from a re-analysis of the deposited data

How the results depend on the processing

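All 10 genes stayed in every one of the 18 alternative fits. Sf3b3, U2af1 and Snrpa1 kept their direction in all of them. The number of the 10 genes called higher went from 1 to 0 after centring on the library median, on the median deviation (with or without a pseudocount), after quantile normalization and with the replicate block (limma adjusted p of Sf3b3 = 0.0829), and ranged from 0 to 1 with a library left out. The number called lower went from 0 to 3 after centring on the library median and to 1 in the other 3 rescaled fits. For the other U2-associated genes the number lower was 7, 4, 6 and 3 in the fits centred on the median, on the median deviation, quantile normalized, and centred on the median deviation without a pseudocount, and 0 to 1 with a library left out (Smndc1 without N40K library 1, Rbm39 without N40K library 3). Log2 changes near 0 turned below 0 on rescaling, and none that turned was called. Centring on the library median gave -0.031 for Sf3a1, -0.12 for Sf3a2, -0.094 for Sf3b1, -0.11 for Sf3b2, -0.099 for Sf3b4 and -0.12 for U2af2. Quantile normalization gave -0.023, -0.10, -0.10, -0.11, -0.098 and -0.10 for the same genes. Centring on the median deviation gave -0.051 for Sf3a2, -0.029 for Sf3b1, -0.047 for Sf3b2, -0.034 for Sf3b4 and -0.053 for U2af2, and without a pseudocount -0.14, -0.093, -0.12, -0.089 and -0.13. With a library left out, the range was -0.0027 to 0.024 for Sf3a2, -0.076 to 0.0044 for Sf3a3, -0.0024 to 0.039 for Sf3b2, -0.061 to 0.10 for Sf3b4 and -0.027 to 0.034 for U2af2. Over all genes, 3372 rose and 645 fell as reported. The counts were 1968 rises when the 25% of genes with the lowest mean scores were left out, 1531 and 2883 centred on the library median, 2235 and 1518 centred on the median deviation, 2022 and 1883 quantile normalized, 2190 and 1202 centred without a pseudocount, 1770 and 328 with the replicate block, and 1613 to 3729 and 303 to 486 with a library left out. Same-numbered libraries did not deviate together (r = -0.0712, 0.0376 and -0.0201 across genes), so the numbers were not taken as pairs; with the replicate block 0 of the 11 U1 genes were called, and the calls of Cog4 (limma adjusted p = 0.0619) and Mog (0.0608) ended. Beyond the rescaling itself and the smaller number of libraries, the cause of these changes was not tested. With 3 libraries a group, no depths and a last decimal of 0.0001, changes as small as most of those seen here could not be separated from the spread.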

Other observations

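Among the U2-associated genes, U2af1l4, a paralog of U2af1, had scores far above the others: 0.4203, 0.4234 and 0.443 in control libraries and 0.4484, 0.444 and 0.4671 in N40K libraries. All N40K libraries lay above all control libraries, and the ratio of 1.06 was not called (limma adjusted p = 0.519). In the GENCODE M21 annotation this gene has 34 transcripts, of which 13 are labelled as retaining an intron, and 409 bases that lie in no exon of any of them. It overlaps Psenen, a gamma-secretase subunit gene, on the opposite strand, and Gm49396, a coding gene model, on its own strand. What part these features have in the score was not tested.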
